A study of Mus musculus with 2 samples.

Results

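The fibroblast growth factor (FGF) and epidermal growth factor (EGF) families were followed in small intestine crypts, the epithelial glands where stem cells divide, of mice with and without the Polycomb gene Eed. Members were chosen by symbol: Fgf genes other than Fgf15, FGF receptors, ligands and receptors of the EGF family, neuregulins, the Sprouty genes and Errfi1. This rule found 32 of 17216 genes: 7 EGF family ligands, 2 neuregulins, 3 ErbB receptors, 8 secreted FGFs, 4 intracellular FGFs, 4 FGF receptors and 4 feedback inhibitors. Other family members, among them Fgfr1, Erbb4 and Nrg1, were not analysed here.

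Bulk RNA-seq libraries came from C57BL/6 mice, 1 library for each genotype. The wild-type library was from AhCre mice, whose Cre recombinase is driven by a promoter that the aryl hydrocarbon receptor switches on. The Eed knockout library was from AhCreEedfl/fl mice, which carry in addition a floxed Eed gene for a core subunit of Polycomb repressive complex 2, the histone H3 lysine 27 methyltransferase. Both genotypes received 3 injections of β-naphthoflavone, the inducer of AhCre, and crypts were taken 15 days later. Age and sex are not given in the labels, nor is whether a library pooled crypts of several animals.

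Depth was 6970733 reads for wild type and 5918162 for knockout, of which 10131 and 9353 fell on the 32 genes. Eed itself was counted at 588 wild-type and 183 knockout reads, and which exons are floxed is not stated. All 8 epithelial markers examined (such as Epcam and Vil1) were within 2-fold, with summed levels of 25292 and 23859 normalized reads. They were not all flat: Cdx2 had 1964 wild-type and 1015 knockout reads, just within 2-fold, and Krt18 had 1447 and 1713. Markers of some other cells did differ. All 8 exocrine pancreas genes were higher, from a sum of 149.9 to 1876 normalized reads. Of these, 7 had a wild-type value under 20 and reached the mean of 20 required below through the knockout library. Their count was therefore not read against the share over all genes. The 9 fibroblast and smooth muscle genes summed to 273.3 and 735.0, with Col1a2, Dcn and Lum at 0 reads in the wild type and Pdgfra at 0 in the knockout. Of these, Col1a1 (1 and 155 reads), Col1a2 (0 and 124) and Col3a1 (6 and 198) were called higher, while Vim (265 and 210), Pdgfra (1 and 0) and Dcn (0 and 1) were not. The 3 collagen genes too reached that mean through the knockout library. Immune markers summed to 146.9 and 362.4 normalized reads, a difference mostly of Lyz2 (27 and 230 reads), with Cd3e at 82 and 79 and Cd68 at 32 and 30. Endothelial markers summed to 17.6 and 36.8, with Kdr at 2 and 21 reads and Tek at 12 and 10. Goblet cell markers summed to 27493 and 31634, and Atoh1 and Spdef were the 2 of 6 called higher, beside 11.2% of all genes tested. Stem cell markers summed to 4544 and 4229, with Lgr5 at 499 and 649 reads and Olfm4 at 2606 and 1622. Nerve and glia markers summed to 38.2 and 47.0. None of the stem, nerve or glia markers was called. The part of these other cells in the differences described here was not tested. In bulk RNA, more or fewer cells of a type and more or less RNA per cell cannot be told apart. With 1 library per genotype there was no replicate and no test of genotype.

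EGF family ligands are made as membrane-bound precursors that proteases release, and they bind EGFR and its relatives ErbB2, ErbB3 and ErbB4. FGFs bind FGF receptors together with heparan sulfate or a Klotho coreceptor. Both receptor families signal through Ras and the kinase ERK, which in turn induces inhibitors such as the Sproutys and Errfi1. In the crypt, EGF signalling sustains the division of stem cells, and Paneth cells are a known source of Egf in mice.

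Genes were called higher or lower in the knockout when the log2 ratio of the normalized values, with 1 added to each, was at least 1 in size (2-fold) and the mean of both libraries was at least 20. Of the 32 genes, 21 reached that mean, and 1 of these, Fgf11, did so through the knockout library, with a wild-type value under 20. By this rule 4 of the 21 were higher (19.0%), namely Egf, Spry4, Fgfr2 and Fgf1, against 11.2% of all genes tested. Fgf9 alone was lower (4.76%), against 3.58% of all genes. An exact binomial test with Benjamini-Hochberg adjustment, a comparison of these libraries alone, called 10 of the 21 higher and 4 lower, against 22.9% and 37.3% of all genes. Counts this small were read as a description of single genes and not as a property of the families. The median log2 ratio was 0.49 over the 21 genes, beside -0.11 over the 10879 genes tested. Without the filter on the mean it was 0.37 over all 32, beside -0.004 over all 17216 genes. Ratios given below are of normalized reads, knockout over wild type, with an exact 95% interval that covers counting error only.

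**Figure D1:**
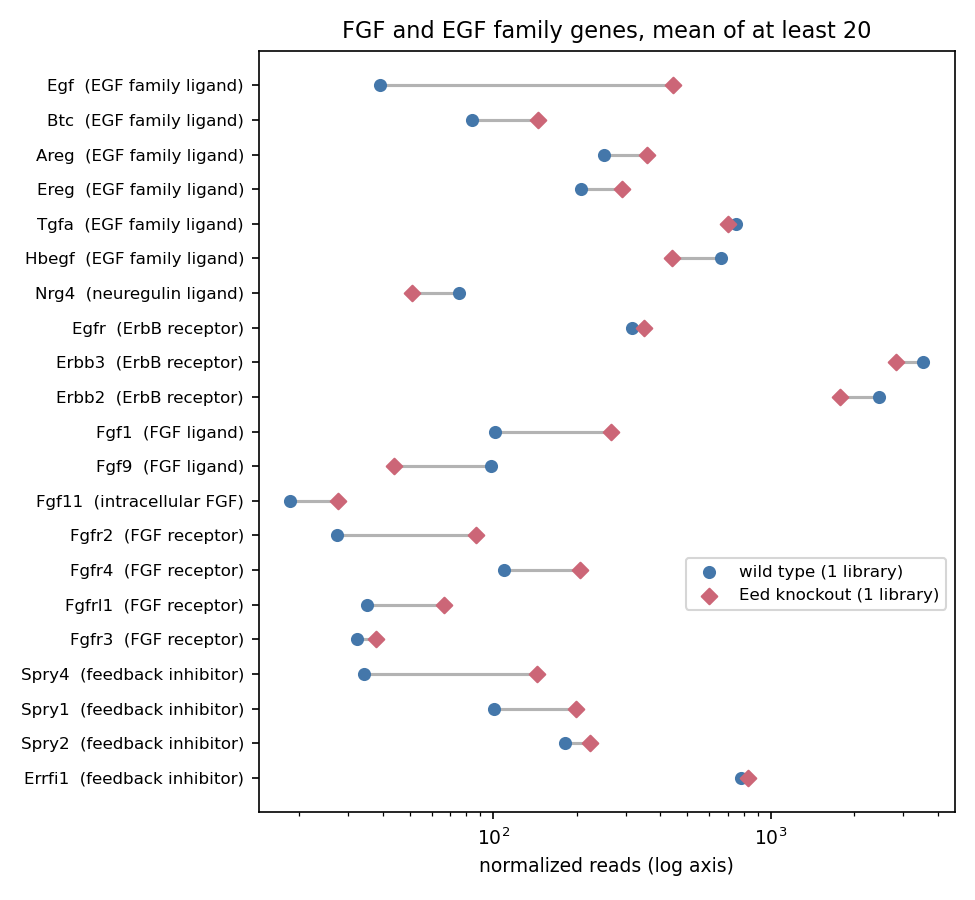
Normalized reads (log axis) of the 21 FGF and EGF family genes with a mean of at least 20, grouped by role, with 1 point per library (circles wild type, diamonds Eed knockout) and a line joining both. The longest line is that of Egf, with 40 wild-type and 435 knockout reads, while Erbb3 and Erbb2 lie farthest to the right in both libraries.

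Egf, the founding ligand of its family (NM_010113), went from 40 wild-type reads to 435 knockout reads. Its ratio of 11.3 (8.19 to 16.1) was the largest among the 21 genes. It was the 1 member that the authors' deposited table called, with an adjusted p of 0.00156 from 1 library per genotype. Paneth cell markers, by comparison, summed to 4386 and 5717 normalized reads, and none of the 5 was at 0. Sox9 (695 and 1411 reads) was the 1 of 5 called higher, beside 11.2% of all genes tested. The markers did not move together: Mmp7 had 943 and 1456 reads, Defa24 202 and 247, Lyz1 1930 and 1910, and Ang4 708 and 576. The 8 exocrine pancreas genes described above were all higher in the same library as Egf, and their part in this difference was not tested.

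The promoters of Egf, Fgfr2 and Fgf9 are shown, the called genes with a window in the RefSeq table used here. Those of Fgf1 and Spry4, also called higher, are not shown. The sequences are the RefSeq windows of 250 bases before to 50 bases after the start, in build GRCm38.p6, written 5′ to 3′ on the gene's strand. Capitals mark CG dinucleotides, since Polycomb repressive complex 2 is known to favour CG-rich promoters in mammals. Egf lies at chr3:129755273-129755572 on the minus strand, Fgfr2 at chr7:130266759-130267058 on the minus strand and Fgf9 at chr14:58072436-58072735 on the plus strand.
Egf: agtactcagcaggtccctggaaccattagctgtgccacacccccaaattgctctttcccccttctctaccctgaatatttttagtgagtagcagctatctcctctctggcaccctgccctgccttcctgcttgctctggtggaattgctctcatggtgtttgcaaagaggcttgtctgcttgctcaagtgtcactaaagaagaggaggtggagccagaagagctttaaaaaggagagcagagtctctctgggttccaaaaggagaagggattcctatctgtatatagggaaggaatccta
Fgfr2: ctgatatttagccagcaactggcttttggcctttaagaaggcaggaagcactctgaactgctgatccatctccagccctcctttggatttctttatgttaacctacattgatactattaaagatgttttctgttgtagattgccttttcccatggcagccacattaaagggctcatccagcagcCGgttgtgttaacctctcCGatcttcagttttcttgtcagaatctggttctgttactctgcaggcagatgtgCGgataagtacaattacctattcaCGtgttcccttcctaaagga
Fgf9: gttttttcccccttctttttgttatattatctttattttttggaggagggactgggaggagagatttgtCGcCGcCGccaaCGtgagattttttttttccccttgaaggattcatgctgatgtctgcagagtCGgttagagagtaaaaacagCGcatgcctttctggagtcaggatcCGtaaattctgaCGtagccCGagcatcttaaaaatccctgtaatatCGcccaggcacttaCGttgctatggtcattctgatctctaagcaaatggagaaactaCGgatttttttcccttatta
The Egf window held no CG, as did 5.43% of 32851 promoter windows of the same length. The Fgfr2 window, whose start lies 617 bases from that of the counted transcript (NM_010207), held 4 CGs, and 68.6% of all windows had at least as many. The Fgf9 window held 12, and 39.6% of all windows had at least as many. Motif letters were counted on 1 strand, since CG reads the same on both. Of the 32 genes 24 had a window, with 0 to 41 CGs and a median of 16.5, beside a median of 7 over all windows. These medians are of unlike sets. Members had 1 window each, while the 32851 windows belong to 27025 genes, with or without reads in these libraries. No matched set was compared. The highest count, 41, belonged to Errfi1, which was within 2-fold.

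The other EGF family ligands differed by less than 2-fold. Areg (amphiregulin) had 257 wild-type and 351 knockout reads, a ratio of 1.42 (1.21 to 1.68). Ereg (epiregulin) had 211 and 285 reads (ratio 1.41, 1.17 to 1.69). Btc (betacellulin) had 86 and 142 reads (ratio 1.72, 1.31 to 2.28). These genes lie side by side on chromosome 5, in the order Epgn, Ereg, Areg and Btc, with no protein-coding gene between neighbours. All 3 with enough reads were above 1 beyond counting error, and Epgn (epigen) had 2 and 3 reads, too few to place.

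Hbegf, the heparin-binding ligand, went the other way, with 678 and 433 reads (ratio 0.666, 0.589 to 0.752). Tgfa had 766 and 689 reads (ratio 0.937, 0.845 to 1.04) whose interval holds 1. Its sign turned under each of 4 other scalings. Nrg4, a neuregulin that binds ErbB4, had 77 and 50 reads (ratio 0.677, 0.464 to 0.979). Nrg2, another neuregulin, had 0 and 7 reads, too few to place.

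Compared per kilobase of transcript, the order of the ligands changed between libraries. In the wild type Hbegf was at 279.6 normalized reads per kilobase (259.0 to 301.5), above Areg at 207.2 (182.6 to 234.1) and Tgfa at 165.7 (154.2 to 177.9). In the knockout Areg came first at 294.9 (264.9 to 327.4), followed by Hbegf at 186.1 (169.0 to 204.5) and Tgfa at 155.4 (144.0 to 167.4). The intervals of Hbegf and Tgfa did not overlap in either library, by a narrow margin in the knockout. Egf moved from 8.23 (5.88 to 11.2), under Btc, to 93.3 (84.7 to 102.5), above Ereg. Of the level summed over the 9 ligands with a row, Egf made up 1.05% for wild type and 10.6% for knockout. The share of Hbegf was 35.8% and 21.1%, and that of Areg 26.5% and 33.5%. Such shares do not depend on how the libraries are scaled. The summed ligand level itself was 780.4 and 881.2 normalized reads per kilobase.

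**Figure D2:**
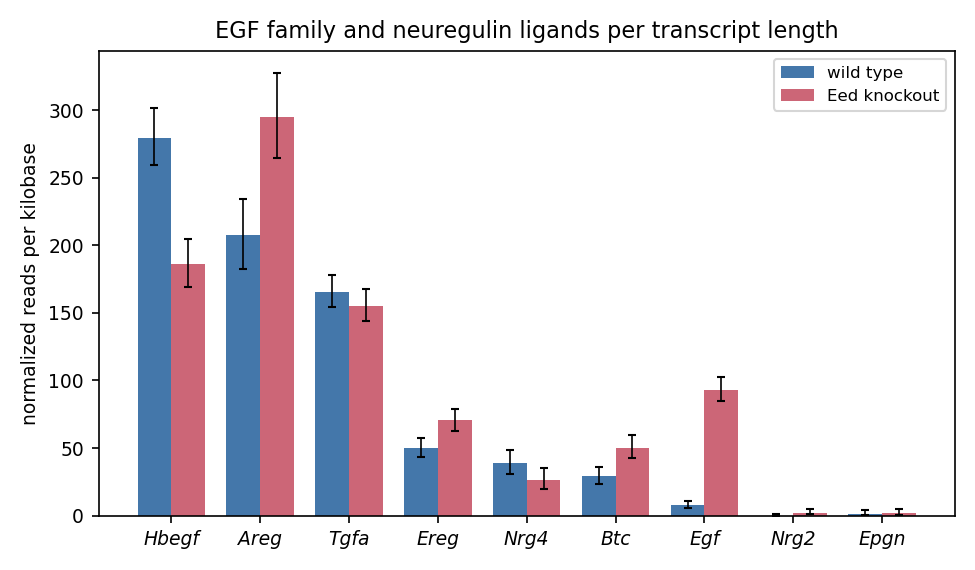
Normalized reads per kilobase of transcript (bars from 0) for the 9 EGF family and neuregulin ligands with a row, ordered from left to right, in the wild-type and Eed knockout libraries, with 1 library each. Error bars are exact 95% Poisson intervals and cover counting error only. Egf goes from 8.23 to 93.3, and Areg stands above Hbegf in the knockout library alone.

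The ErbB receptors were within 2-fold. Erbb3, which lacks an active kinase of its own and binds neuregulins, had 3608 and 2776 reads (ratio 0.802, 0.763 to 0.843). Erbb2, the partner receptor without a known ligand, had 2507 and 1734 reads (ratio 0.721, 0.678 to 0.767). Under 4 other scalings both stayed below 0 on the log2 scale but left these counting intervals. Erbb3 was then at -0.21 to -0.14 in place of -0.32, and Erbb2 at -0.37 to -0.30 in place of -0.47. Egfr, the receptor for Egf, Areg and Tgfa, had 324 and 343 reads on its main transcript (NM_207655), a ratio of 1.10 (0.945 to 1.29). A shorter Egfr transcript (NM_007912), 2943 against 10208 bases long, had 12 and 7 reads.

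Per kilobase the order of the receptors was the same in both libraries. Erbb3 stood at 587.5 (568.4 to 607.0) among wild-type reads and 471.1 (453.7 to 488.9) among knockout reads. Erbb2 stood at 490.0 (471.0 to 509.5) and 353.2 (336.8 to 370.2). Egfr was far lower, at 31.1 (27.8 to 34.7) and 34.3 (30.8 to 38.1). Neighbouring receptors in this order differed beyond counting error in each library. Erbb3 and Erbb2 ranked first and second of all 32 genes in both.

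FGF genes were sparse among the secreted ligands. Fgf1, an FGF that binds all FGF receptors, had 104 and 260 reads (ratio 2.61, 2.07 to 3.30). Fgf9, a ligand known from developing gut epithelium, had 100 and 43 reads, 2.23-fold lower (1.55 to 3.27). The lower call of Fgf9 was lost under 3 of 4 other scalings and with 10 added to each value. In the wild type Fgf9 was the more abundant of the pair per kilobase, at 61.5 (50.03 to 74.8) against 25.6 (20.9 to 31.0) for Fgf1. In the knockout Fgf1 was, at 66.7 (58.8 to 75.3) against 27.6 (19.9 to 37.1). Fgf7 and Fgf10, ligands that mesenchymal cells send to epithelium, had 1 and 1 and 2 and 3 reads. Fgf16 had 10 and 3 reads (ratio 0.313, 0.055 to 1.21). Fgf17, Fgf21 and Fgf22 had at most 1 read in either library.

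Fgf11 to Fgf14 form a subgroup that stays inside the cell and is known for binding sodium channels. Fgf11 had 19 and 27 reads (ratio 1.48, 0.794 to 2.82). Fgf13 had 6 and 6 reads, while Fgf12 and Fgf14 had at most 3 reads in either library. None of the 4 can be placed at this depth.

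All 4 FGF receptors with a row had ratios above 1, under the authors' scaling and 4 others. Fgfr2 encodes the receptor for Fgf7 and Fgf10 in epithelia, and which splice form each of its rows stands for was not examined. It had 28 and 85 reads on transcript NM_010207, a ratio of 3.16 (2.04 to 5.04). Its other transcript (NM_201601) had 19 and 61 reads (ratio 3.35, 1.97 to 5.93). Both rows showed the same direction, but the sources used here do not say how reads common to both transcripts were assigned. Fgfr4, the receptor for Fgf15 best known from liver, had 112 and 201 reads (ratio 1.87, 1.48 to 2.38). Fgfrl1, a family member that lacks the kinase domain, had 36 and 65 reads (ratio 1.88, 1.23 to 2.91). Both were called higher under 3 of 4 other scalings. Fgfr3 had 33 and 37 reads (ratio 1.17, 0.711 to 1.93) whose interval holds 1.

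**Figure D3:**
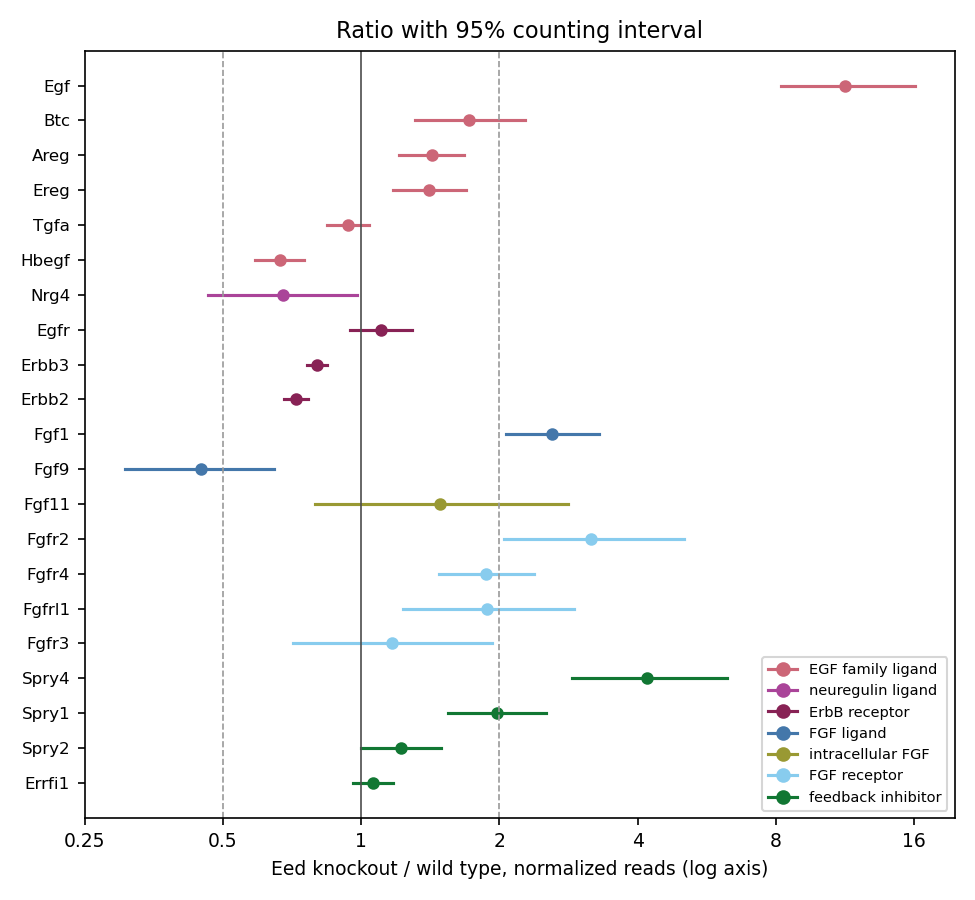
Ratio of normalized reads, Eed knockout over wild type (log axis), with exact 95% counting intervals for the 21 genes with a mean of at least 20, coloured by role, with 1 library per genotype. The solid line marks 1 and the dashed lines 2-fold lower and higher, and the intervals of Egf (8.19 to 16.1), Spry4 (2.88 to 6.27), Fgf1 (2.07 to 3.30) and Fgfr2 (2.04 to 5.04) lie wholly above 2.

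Of the 4 feedback inhibitors, 1 was called higher and none lower, beside 11.2% and 3.58% of all genes. Spry4, a Sprouty that restrains Ras signalling, had 35 and 141 reads (ratio 4.20, 2.88 to 6.27). Spry1 had 103 and 195 reads (ratio 1.97, 1.55 to 2.53), just under the rule and above it under each of 4 other scalings. Spry2 had 186 and 218 reads (ratio 1.22, 0.9998 to 1.49). Errfi1, which binds and blocks the EGFR kinase, had 798 and 813 reads (ratio 1.06, 0.962 to 1.17). Spry4 and Fgf1, both called higher, lie near each other on chromosome 18, with 2 protein-coding genes between them. Another near pair of that chromosome, Nrg2 and Hbegf with 4 between them, was not called, and Hbegf had 678 and 433 reads.

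Per kilobase the inhibitors kept their order in both libraries. Errfi1 led with 256.9 (239.4 to 275.3) for wild type and 272.8 (254.3 to 292.2) for knockout. Spry2 followed with 87.3 (75.2 to 100.8) and 106.6 (93.0 to 121.8), and Spry1 with 40.7 (33.2 to 49.3) and 80.2 (69.4 to 92.3). The intervals of Spry1 and Spry2 did not overlap in the wild type and narrowly missed each other in the knockout. Spry4 was lowest, at 7.21 (5.02 to 10.03) and 30.3 (25.5 to 35.7).

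Other genes of both pathways were examined as lists chosen for their role. Among coreceptors and heparan sulfate proteins, which hold FGFs at their receptors, 7 of the 13 genes past the filter on the mean were higher and 0 lower. Of these 13, 5 reached the mean through the knockout library alone (Flrt1, Gpc1, Gpc3, Klb and Sdc3), and all 5 are among the 7, so that count was not read against the share over all genes. The other 2 were Gpc2 and Sdc2. Over all 20 with a row, at any mean, 11 exceeded 2-fold upward with more than 3 knockout reads, beside 14.1% of all 17216 genes, and this rule too admits genes through the library where they are high. None was 2-fold lower with more than 3 wild-type reads, beside 3.92% of all genes. Klb (β-Klotho), the coreceptor that pairs with Fgfr4, had 8 and 82 reads (ratio 10.7, 5.17 to 25.6). The glypicans Gpc3 and Gpc1 had 5 and 318 reads and 10 and 126 reads, ratios of 66.3 (28.1 to 205.5) and 13.1 (6.91 to 28.1). Sdc3, a syndecan best known from nerve, had 16 and 161 reads (ratio 10.5, 6.26 to 18.8). The abundant syndecans Sdc1 (1406 and 1769 reads) and Sdc4 (1310 and 1080 reads) were within 2-fold. All 8 pancreas genes and the 3 collagen genes given above were higher in the same library, and their part was not tested.

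The intracellular relay was examined next. None of 19 adaptors and ERK cascade genes past the filter differed by 2-fold, beside 11.2% of all genes higher and 3.58% lower. Calls were rarer among all genes with a mean of at least 100, at 5.88% higher and 3.04% lower. A count of 0 of 19 was therefore not read as a trait of the relay. The median log2 ratio of the 19 was -0.43, beside -0.11 over all genes tested and -0.16 over those with a mean of at least 100. Under the authors' scaling 18 of the 19 were below 0, and 13 to 16 under 4 other scalings, with medians from -0.33 to -0.25. Over all genes tested 59.8% were below 0 under the authors' scaling and 43.8% to 51.0% under the others, where the all-gene median lay between -0.01 and 0.06. The lowest was Sos2, a Ras activator, with 1245 and 616 reads (ratio 0.516, 0.467 to 0.568). Gab1, a docking protein of both receptor families, had 924 and 526 reads (ratio 0.593, 0.532 to 0.661).

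Among ERK feedback and target genes, 15 passed the filter, of which 5 were called higher and 0 lower, beside 11.2% and 3.58% of all genes. Their median log2 ratio was 0.61. Under 4 other scalings 7 were higher, beside 12.3% to 13.3% of all genes. Etv5, an ETS factor induced by FGF signalling, had 189 and 855 reads (ratio 4.71, 4.02 to 5.55). Its relative Etv4 had 109 and 212 reads (ratio 2.03, 1.60 to 2.58). Egr1, an immediate early factor, had 147 and 347 reads (ratio 2.46, 2.02 to 3.00), and the ERK phosphatase gene Dusp4 188 and 403 (ratio 2.23, 1.87 to 2.67). Ccnd1, which encodes cyclin D1, was the remaining one. The list did not move as one: Fos, another immediate early gene, had 1969 and 1229 reads, and the ephrin receptor gene Epha2 2310 and 1407.

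**Figure D4:**
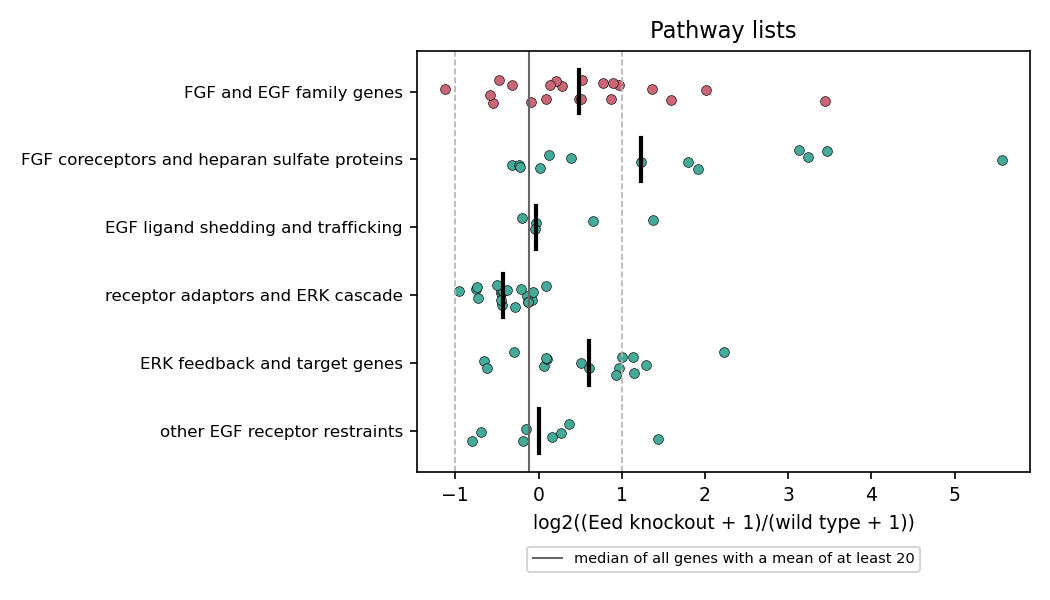
Log2 ratio of normalized values with 1 added, Eed knockout over wild type, for genes with a mean of at least 20 in the FGF and EGF families and in 5 pathway lists (1 point per gene, black bars the list medians, spread on the vertical axis for legibility). The grey line marks the median of all genes tested, -0.11, and the dashed lines 2-fold. The coreceptor list reaches farthest to the right through Gpc3, then Gpc1, Sdc3 and Klb, which reached the mean through the knockout library alone. Its reach was therefore not read as a trait of the list. All 19 adaptor and cascade genes lie between the dashed lines.

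Proteins that release EGF ligands showed 1 of 5 higher and none lower, beside 11.2% and 3.58% of all genes. Adam19, a membrane protease, had 18 and 48 reads (ratio 2.78, 1.59 to 5.08), and reached the mean through the knockout library. Adam10, the protease that sheds Egf and Btc, had 2110 and 1979 reads. The list's median log2 ratio of -0.03 turned positive under 4 other scalings. Of 8 other restraints on EGF receptors, Socs5 was the 1 called, beside 11.2% of all genes higher and 3.58% lower. Socs5 had 92 and 243 reads (ratio 2.75, 2.16 to 3.54). Lrig1, a receptor-degrading protein of crypt stem cells, had 1330 and 1648 reads, and Cbl, a ubiquitin ligase for EGFR, 1058 and 580. The median log2 ratio of this list was 0.01 under the authors' scaling and 0.11 to 0.18 under the others.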

How the data were processed

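RNA was measured in 2 libraries of mouse small intestine crypts, 1 per genotype. Per the submitters' processing notes, TopHat aligned reads to mm9 and DESeq made the values, and no source used here names the counting tool. The deposited table, per the file headers, holds 1 normalized signal per library for 18766 RefSeq transcripts, the authors' fold ratio and log2 of it, and p-values, raw and adjusted. Within a tolerance of 1e-06, 100% of the values were whole multiples of the lowest value in their column, so whole reads were recovered. No row stood at the lowest value in both libraries, which is taken here as a sign of 1 read added to all values, so printed reads have 1 subtracted.

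A gene with several rows was represented by the row with the highest mean, and member symbols were matched whole. Ratios use recovered reads and the authors' size factors, with Clopper-Pearson intervals. Because PCR copies were not marked by molecular identifiers, intervals and floors reflect counting error alone. Transcript lengths came from GENCODE vM21 by accession and promoter windows from RefSeq (GRCm38.p6). No coordinates were joined to the authors' build. The exact binomial test used recovered reads and an adjusted p of 0.05, and compares libraries, not genotypes.

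All members were described, and of each pathway list up to 4 genes past the rule, while list genes named within 2-fold were chosen after their values were seen. The members and lists were chosen with earlier results of these data known. The functions were tested on simulated data. Software was SciPy 1.17.1, pandas 2.3.3, NumPy 2.4.6 and Matplotlib 3.10.9 under Python 3.11.15.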

Additional observations from a re-analysis of the deposited data

How the results depend on the processing

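Egf, Fgf1, Fgfr2 and Spry4 were higher by at least 2-fold in every alternative run that kept them above the filter, except that a 3-fold rule left 3 (losing Fgf1) and a mean of at least 100 left 2 (Egf and Fgf1). Scaling to library totals, to the median ratio of abundant genes (mean 100 or more) or to the upper quartile each gave 7 members higher and 0 lower, adding Fgfr4, Fgfrl1 and Spry1 and losing Fgf9. These scalings shifted the median of all genes by 0.18, 0.17 and 0.17 on the log2 scale. Over the whole table they gave 1444, 1418 and 1439 genes higher in place of 1217 and 237, 246 and 237 lower in place of 390, and the higher share of calls went from 75.7% to 85.9%, 85.2% and 85.9%. A trimmed mean of log ratios shifted it by 0.10, adding Spry1, with a share of 82.2%. Fgf9 was also not called with a pseudocount of 10, a mean of at least 100 or a 3-fold rule (0 lower in each). With no filter 6 members were higher and 2 lower, and over all genes 2825 and 726. A 1.5-fold rule gave 8 and 2, and over all genes 1837 and 1430. The exact binomial test of both libraries called 10 of 21 members higher and 4 lower, and over all genes 2486 (22.9%) and 4062 (37.3%). Over the table, a mean of at least 50 gave 778 higher, a mean of at least 100 gave 477 and 247, and a 3-fold rule 770 and 107. The median log2 ratio of the members ranged from 0.37 to 0.67. No called member changed direction under the alternatives, while Tgfa, not called, changed sign under 4 other scalings. Of 256 values of single members under alternatives, 15 left the counting interval. These belonged to 5 genes with narrow intervals: Erbb2, Erbb3, Errfi1, Hbegf and Tgfa. With 1 library per genotype no library could be left out. No paired analysis was possible because each genotype has 1 library. At this depth the 11 members under a mean of 20, with at most 10 reads in a library, cannot be placed.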
